A study of Mus musculus with 6 samples.

Results

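The miR-183 cluster is a group of 3 microRNA hairpins, miR-183, miR-96 and miR-182, that lie together on mouse chromosome 6. Its members were taken by name, as both arms of each hairpin (mmu-miR-182-5p, mmu-miR-183-5p, mmu-miR-96-5p and their 3p partners mmu-miR-182-3p, mmu-miR-183-3p and mmu-miR-96-3p), which gave 6 of the 1915 mature microRNA names in the deposited count table. Each of the 6 had a single entry there. The small RNA libraries came from mouse iBN cells, which grow in suspension, are labelled as granulocyte-macrophage progenitors and hold a system for inducing PU.1. PU.1, encoded by Spi1, is a transcription factor of myeloid cells. Both groups carried this system and grew with GM-CSF and fetal bovine serum. One group was left uninduced and the other was given doxycycline at 1000 ng/ml over 72 hours, with 3 libraries in each, numbered as trials 1, 2 and 3. Small RNA libraries do not show the level of PU.1. Cells given doxycycline without the inducible gene were not analysed here, so effects of PU.1 and of doxycycline cannot be told apart. Whether a trial was its own culture is not stated, and p-values therefore reflect only how much these libraries varied, possibly for technical reasons.

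A microRNA is cut from a hairpin whose arms, called 5p and 3p, can each give a mature strand of about the same length. The strand that is loaded into Argonaute pairs with target messages mainly through its seed, the bases from position 2 to position 8. The miR-183 cluster is best known from sensory organs, where hair cells, photoreceptors and other sensory neurons express it strongly, and a change in the miR-96 seed causes hearing loss. In the immune system, miR-182 is known as a microRNA that interleukin-2 induces in helper T cells and that represses Foxo1, and miR-183 and miR-96 also act on the Foxo pathway.

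All 6 members were found in the RefSeq table of GRCm38, the assembly called mm10. The 5p strands are shown first because they carry nearly all of the cluster's reads. Each is written 5′ to 3′ with the seed in capitals, followed by miR-1271-5p, the other mature microRNA of that table with the full seed of a 5p member.
miR-182-5p: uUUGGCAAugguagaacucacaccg
miR-183-5p: uAUGGCACugguagaauucacu
miR-96-5p: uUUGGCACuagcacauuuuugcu
miR-1271-5p: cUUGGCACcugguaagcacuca

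The 3 seeds are close but not the same. With positions counted from 1 at the 5′ end, the seed of miR-96-5p becomes that of miR-182-5p by C8A and that of miR-183-5p by U2A. miR-182-5p and miR-183-5p have 5 of 7 seed positions in common and differ there by U2A and A8C. Over all compared positions, seed included, these are the closer pair. Of 22 positions, miR-182-5p and miR-183-5p were identical at 18, whereas miR-96-5p matched miR-183-5p at 13 of 22 and miR-182-5p at 12 of 23. The word UUGGCA stands in the seed of 3 of the 1679 mature names of the table (miR-182-5p, miR-96-5p and miR-1271-5p), and UGGCAC in that of 3 as well (miR-183-5p, miR-96-5p and miR-1271-5p). miR-1271-5p, from chromosome 13, was not analysed here.

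The 3p strands are shown because their reads are set against those of the 5p arm of each hairpin.
miR-182-3p: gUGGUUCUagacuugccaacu
miR-183-3p: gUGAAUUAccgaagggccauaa
miR-96-3p: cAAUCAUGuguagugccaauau

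The seeds of the 3p strands, again in capitals, differ from each other and from those of the 5p strands.

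The hairpins lie on the minus strand in the order miR-183 (chromosome 6, 30169668 to 30169737), miR-96 (30169446 to 30169551) and miR-182 (30165918 to 30165992). miR-183 and miR-96 are separated by 116 bases and miR-96 and miR-182 by 3453 bases, and together they span 3820 bases. All 3 fall inside the RefSeq span of the long non-coding RNA gene Mirc35hg (30158640 to 30174125, minus strand), and whether they lie in its exons or introns was not analysed here. GENCODE M21 places no gene other than the hairpins themselves over them. The nearest annotated genes there are Nrf1, a transcription factor gene, on one side and the long non-coding RNA gene Rncr4 on the other, both on the plus strand.

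**Figure D1:**
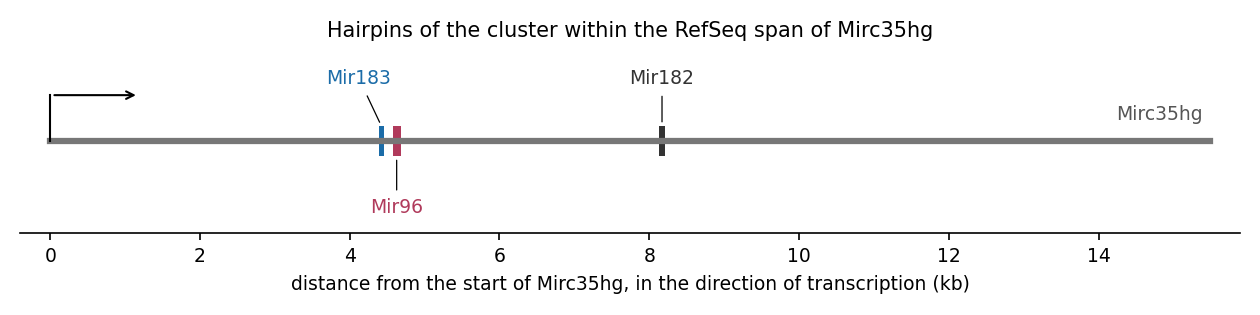
The grey line is the RefSeq span of Mirc35hg, with distance from its start in kb along the x axis in the direction of transcription, and the boxes are the hairpins drawn to scale. Mir183 starts 4388 bases and Mir96 4574 bases from the start, and Mir182 lies further on, at 8133 bases.

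miR-182-5p made up most of the cluster and was among the more abundant microRNAs of these cells. It averaged 6085 CPM ± 1054 in uninduced and 7356 CPM ± 773 in induced cells (SD, n = 3 each), and ranked 22 of 1915 names by mean level. CPM are read counts relative to library size, scaled between libraries with the TMM factors of edgeR, and since each read stands for a whole mature strand they need no scaling by length. miR-183-5p ranked 70, with 940 CPM ± 269 and 1100 CPM ± 152, and miR-96-5p ranked 230, with 36.1 CPM ± 7.15 and 40.6 CPM ± 2.97 (uninduced and induced, SD, n = 3 each). Of the 3p strands, miR-183-3p averaged 11.3 CPM ± 2.67 and 12.9 CPM ± 2.13, while miR-182-3p (0.795 CPM ± 0.845 and 0.999 CPM ± 0.605) and miR-96-3p (0.5 CPM ± 0.341 and 0.549 CPM ± 0.484) stayed near the limit of detection. Neighbours in that order did not overlap in their ranges over the 6 libraries, except miR-182-3p and miR-96-3p, which did.

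Summed over the 6 arms, the cluster took 0.700% ± 0.0972 of the reads kept (1 entry per name) in uninduced and 0.853% ± 0.0521 in induced cells (SD, n = 3 each). In CPM the sum went from 7073 ± 1330 to 8511 ± 882 (SD, n = 3 each). With 1 entry kept per name, the libraries held 8697384 to 13946613 reads, which leaves out 17.5% of the deposited counts. A count of 0 in a library allowed up to 0.215 to 0.345 CPM. That limit covers counting error only, because no molecular identifiers are described. The labelled cell type was checked against 7 haematopoietic and myeloid microRNAs, all of which were detected, with a summed level of 83018 to 105490 CPM uninduced and 93161 to 107298 CPM induced. Markers listed for other cell types were also detected. The 5 lymphoid ones summed to 37170 to 39497 CPM uninduced and 29236 to 37268 CPM induced, the 9 neural and sensory ones to 376 to 448 and 366 to 406 CPM, and the 4 erythroid ones to 22.9 to 36.5 and 37.5 to 40.3 CPM. Each sum was mostly 1 microRNA. For the haematopoietic and myeloid list it was miR-142a-5p (61398 CPM ± 10982 uninduced, SD, n = 3), and for the lymphoid list miR-181a-5p (31821 CPM ± 1154). For the neural list it was miR-128-3p (354 CPM ± 39.7) and for the erythroid list miR-486a-5p (30.3 CPM ± 6.91; both uninduced, SD, n = 3). By contrast, miR-124-3p had 0 reads and the erythroid miR-451a 17 in all. These sums do not by themselves settle the cell type. The part of these markers in the levels of the cluster was not tested.

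The 4 arms that could be tested were all higher in induced cells, by small amounts, and none passed the unblocked test, in which 3.43% of the 525 tested microRNAs were called higher. For miR-182-5p the uninduced libraries of trials 1, 2 and 3 had 5087, 5979 and 7188 CPM and the induced libraries 6463, 7809 and 7795 CPM. Every induced library was above the uninduced library of its own trial, but the induced value of trial 1 lay below the uninduced value of trial 3, so the groups overlapped. The log2 fold change, induced over uninduced, was 0.27 (SE 0.14), or 1.21-fold, with an edgeR adjusted p of 0.313. With the trial as a block the change was 0.28 (SE 0.08) and the edgeR adjusted p 0.027, so miR-182-5p was called higher in that fit.

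That call was lost when both libraries of any 1 trial were left out of the blocked fit, with edgeR adjusted p of 0.234 without trial 1, 0.129 without trial 2 and 0.098 without trial 3. The log2 changes in those fits were 0.25, 0.23 and 0.35. Calls were common with the block: it passed 114 of 525 microRNAs, or 21.7% (10.7% higher and 11% lower in induced cells), against 32 (6.1%) without it. By p-value, miR-182-5p ranked 92 of 525 with the block and 144 without it.

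miR-183-5p had 722, 857 and 1241 CPM in the uninduced and 984, 1044 and 1273 CPM in the induced libraries of trials 1, 2 and 3. Trial 3 was highest in both groups, and its uninduced library lay above the induced libraries of trials 1 and 2. The log2 fold change was 0.23 (SE 0.20, edgeR adjusted p = 0.570), and 0.26 (SE 0.09, edgeR adjusted p = 0.069) with the block. miR-96-5p had 28.8, 36.2 and 43.1 CPM uninduced and 38.8, 38.9 and 44.0 CPM induced. Here too trial 3 was highest in both groups and the groups overlapped. Its log2 fold change was 0.17 (SE 0.17, edgeR adjusted p = 0.646), and 0.18 (SE 0.11, edgeR adjusted p = 0.230) with the block.

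The minor strand miR-183-3p had 9.61, 9.89 and 14.4 CPM uninduced and 13, 10.7 and 14.9 CPM induced, a log2 fold change of 0.19 (SE 0.22, edgeR adjusted p = 0.681). As for its 5p partner, trial 3 was highest in both groups. The other 2 strands fell under the filter on low counts and were not tested. miR-182-3p had 5, 1 and 19 reads in the uninduced and 9, 5 and 23 reads in the induced libraries of trials 1, 2 and 3, and miR-96-3p had 7, 1 and 7 reads and 11, 0 and 10 reads. For both, trial 2 was lowest in each group, at counts too small to tell the groups apart.

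**Figure D2:**
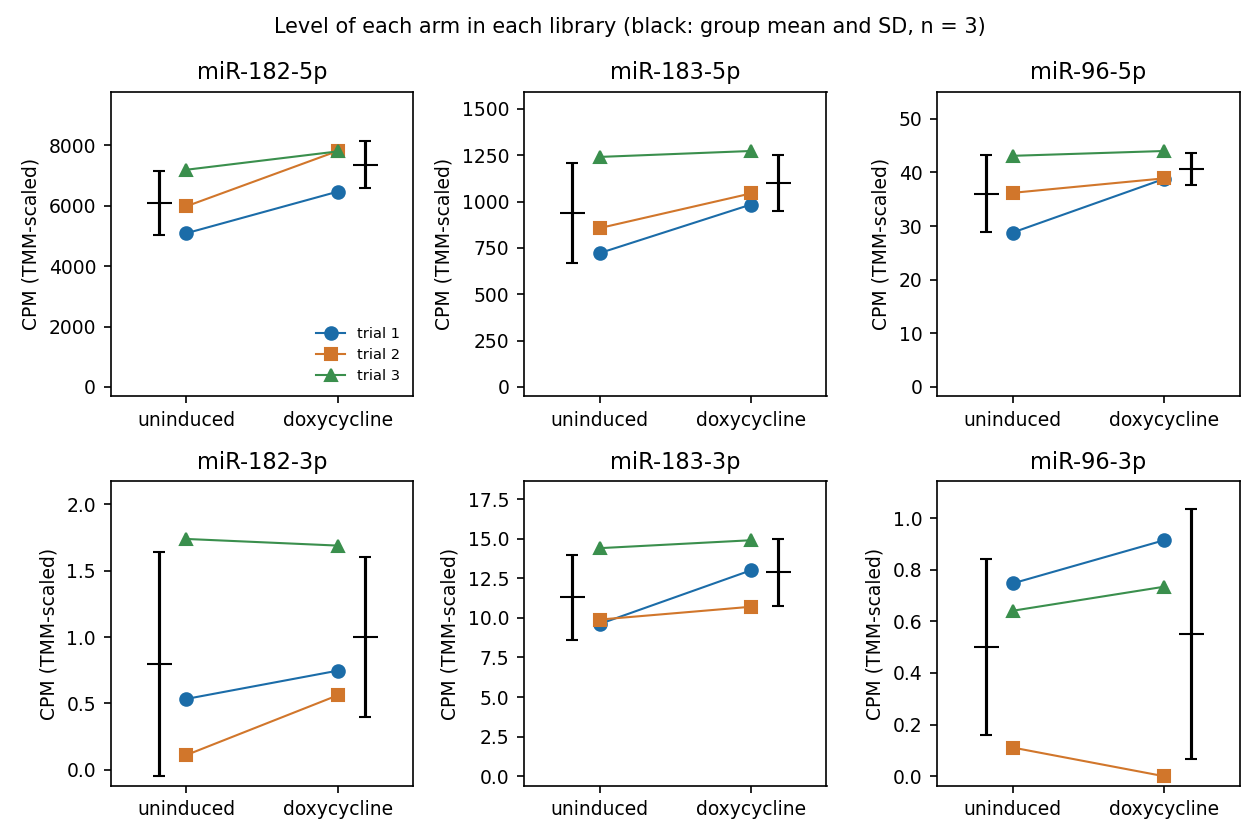
Each panel gives the TMM-scaled CPM of 1 arm on the y axis in uninduced and doxycycline-treated cells, with 1 coloured line per trial and the mean and SD of each group in black (n = 3). For miR-182-5p the lines run from 5087 to 6463, from 5979 to 7809 and from 7188 to 7795 CPM in trials 1, 2 and 3, and for the other tested arms trial 3 is highest in both groups.

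Of the 6 members, 4 were tested, and 0 of these passed the quasi-likelihood test of edgeR at a Benjamini-Hochberg adjusted p of 0.05. Of all 525 tested microRNAs, 6.1% passed it. Before adjustment, 0 of the 4 had an edgeR p under 0.05, beside 20.8% of all tested microRNAs. DESeq2 and limma-voom also passed 0 of the 4, and over all microRNAs they passed 37 and 20. Groups with no overlap in CPM were seen for 0 of the 4, against 27.6% of the 525 tested microRNAs in either direction and 16% with induced cells higher. With the block 1 of the 4 passed, beside 21.7% of all tested, and 2 had an unadjusted p under 0.05 (37.1% of all tested). The median log2 fold change of the 4 was 0.21, beside 0.02 over all tested microRNAs.

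Within trials the direction was the same throughout, while the size was not. The log2 change of miR-182-5p was 0.35 in trial 1, 0.39 in trial 2 and 0.12 in trial 3. For miR-183-5p it was 0.45, 0.29 and 0.04. Trial 3 gave the smallest change of both. miR-96-5p had 0.43, 0.10 and 0.03, and miR-183-3p had 0.43, 0.10 and 0.05. All 4 tested arms were higher in induced cells in each of the 3 trials, which was also true of 29% of the 525 tested microRNAs, and 29.5% were lower in each trial. The arms are made from one locus and are not independent, so their common direction is not 4 separate observations.

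These changes lay well inside the spread of the other microRNAs. In trial 1, where the 4 arms changed by 0.35 to 0.45, the 90th percentile of all tested microRNAs was 0.62. In trial 3, where they changed by 0.03 to 0.12, the 10th and 90th percentiles were -0.43 and 0.47.

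**Figure D3:**
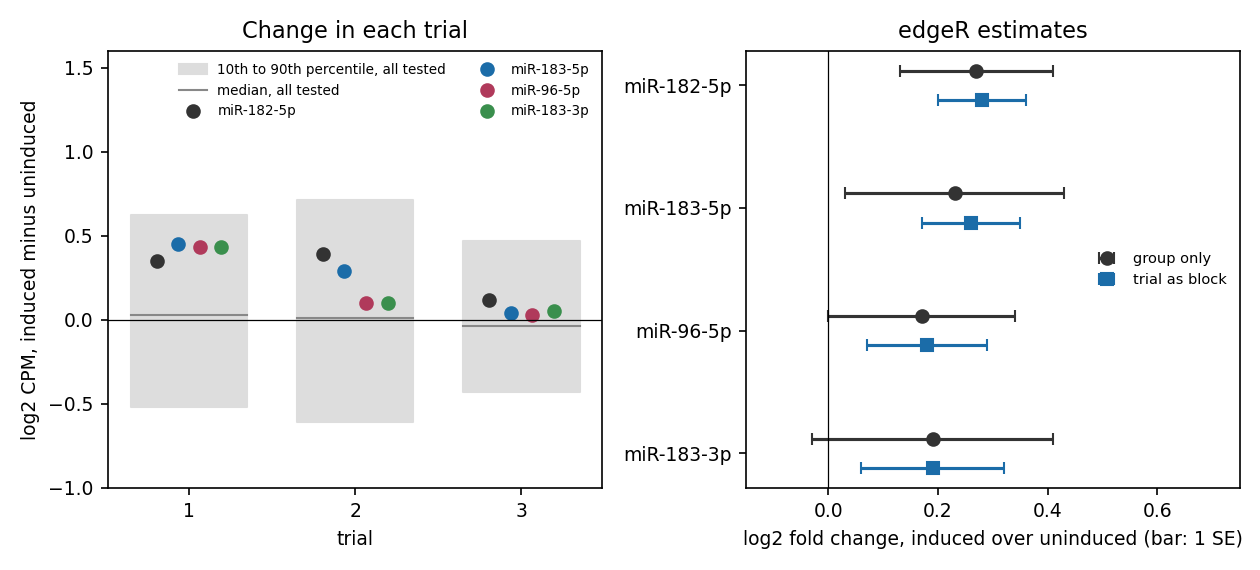
On the left, the log2 difference between induced and uninduced CPM (y axis) is shown for the 4 tested arms in each trial, over grey boxes from the 10th to the 90th percentile of the 525 tested microRNAs. On the right, the log2 fold changes estimated by edgeR are shown on the x axis with bars of 1 SE; with the trial as a block the SE of miR-182-5p goes from 0.14 to 0.08 while its estimate stays near 0.28.

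The proportions within the cluster had close means in the groups. Of the reads of all 6 arms, miR-182-5p held 86.2% ± 1.30 uninduced and 86.4% ± 1.18 induced, miR-183-5p 13.1% ± 1.28 and 12.9% ± 1.12, and miR-96-5p 0.509% ± 0.0169 and 0.479% ± 0.0402 (SD, n = 3 each). The ligation steps of small RNA library preparation take up different strand ends unequally, so such ratios compare reads and not molecules, and only their change between libraries can be read.

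For every 100 reads of miR-182-5p there were 14.2, 14.3 and 17.3 reads of miR-183-5p in the uninduced and 15.2, 13.4 and 16.3 in the induced libraries of trials 1, 2 and 3. Trial 3 was highest in both groups. The exact (Clopper-Pearson) 95% intervals, such as 17.0 to 17.6 for uninduced trial 3 and 13.1 to 13.7 for induced trial 2, cover counting error only and were narrower than the spread between libraries. Between the groups the log2 ratio differed by -0.03 (SE 0.12), with an exact two-sided permutation p of 1.000. The difference was 0.10 in trial 1, -0.10 in trial 2 and -0.08 in trial 3.

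miR-96-5p gave 0.567, 0.606 and 0.600 reads per 100 reads of miR-182-5p in the uninduced and 0.600, 0.498 and 0.564 in the induced libraries. The induced library of trial 2 was the lowest, and the other 5 lay between 0.564 and 0.606. The log2 ratio differed between groups by -0.10 (SE 0.08, exact two-sided permutation p = 0.3). Against miR-183-5p, miR-96-5p gave 3.99, 4.23 and 3.48 reads per 100 uninduced and 3.94, 3.73 and 3.46 induced, so that trial 3 was lowest in both groups. That log2 ratio differed by -0.07 (SE 0.10, exact two-sided permutation p = 0.4).

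**Figure D4:**
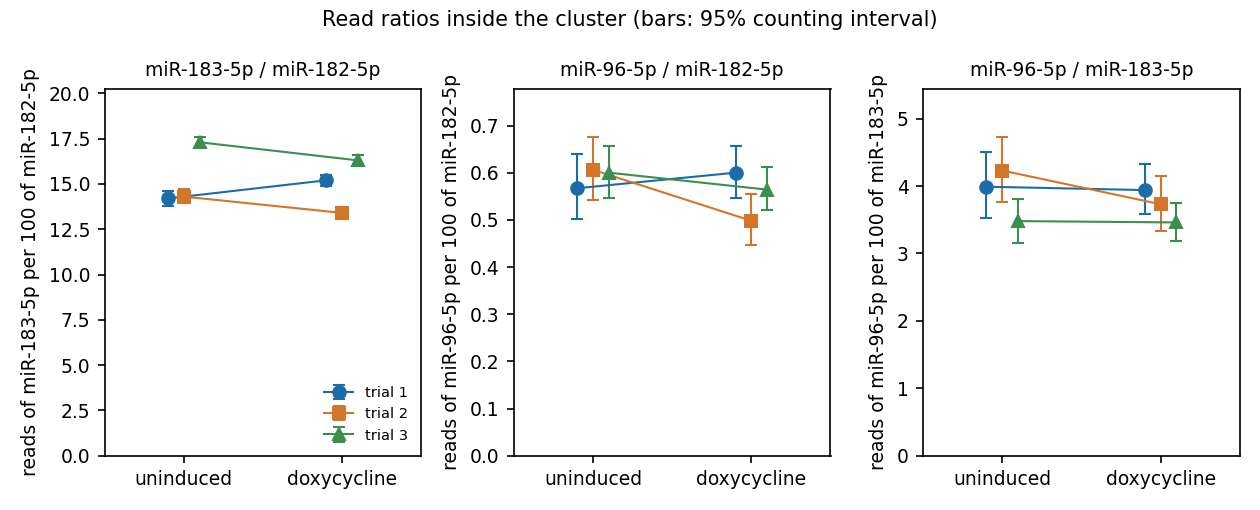
Each panel plots the reads of one 5p strand per 100 reads of another (y axis, from 0) for uninduced and doxycycline-treated cells, with 1 coloured line per trial and bars for the exact 95% counting interval. Trial 3 stands at 17.3 and 16.3 reads of miR-183-5p per 100 of miR-182-5p, above the other trials in both groups.

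Each hairpin gave more reads from its 5p arm than from its 3p arm, and the 3p share of reads differed between hairpins. Because ligation takes up strand ends unequally, such differences between hairpins compare reads and not molecules. In the miR-182 hairpin the 3p strand made up 0.00186% of the reads of both arms in the uninduced library of trial 2 (exact 95% interval 4.71e-05% to 0.0104%) and 0.0242% in that of trial 3 (0.0146% to 0.0378%), which were the lowest and highest of the 6 libraries. In the miR-183 hairpin it made up 1.2% ± 0.0980 uninduced and 1.16% ± 0.149 induced (SD, n = 3 each), with a range of 1.01% to 1.31%. The 3p share of reads of miR-183 was therefore above that of miR-182 in each of the 6 libraries. The miR-96 hairpin had 2.53%, 0.306% and 1.46% from its 3p arm in the uninduced and 2.30%, 0% and 1.64% in the induced libraries of trials 1, 2 and 3. These rest on few reads: 7 of 277 gave 2.53% (exact 95% interval 1.02% to 5.14%), and 0 of 347 has an exact 95% interval of 0% to 1.06%. The limit that a count of 0 allows, taken as 3 counts of the total, is 0.865% there.

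No difference between the groups in the balance of the arms was detectable for miR-183 or miR-182. The arm ratio of miR-96 was not tested, as its 3p strand had 0 reads in the induced library of trial 2. For miR-183, there were 75.2, 86.6 and 86.3 reads of the 5p strand for each read of the 3p strand uninduced and 75.5, 98.0 and 85.4 induced. Trial 1 had the lowest ratio in both groups, and the log2 ratio differed by 0.06 (SE 0.13, exact two-sided permutation p = 0.900). For miR-182 the difference was -0.47 (SE 1.02, exact two-sided permutation p = 0.800), a value that the single 3p read of uninduced trial 2 decided. Without that library it was 0.40, and with a pseudocount of 5 reads in place of 0.5 it was 0.02. Benjamini-Hochberg adjustment over the 5 ratios gave 1.000 for each, and 3 against 3 libraries cannot reach an exact permutation p below 0.1.

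The 5p strands varied together from library to library. Over the 6 libraries the Pearson correlation of log2 CPM was 0.97 for miR-183-5p and miR-96-5p, 0.91 for miR-182-5p and miR-183-5p and 0.90 for miR-182-5p and miR-96-5p. With the group means removed it was 0.96, 0.91 and 0.88, so the group difference added little to it. Among the 322 other microRNAs of at least 10 CPM that were tested, miR-183-5p and miR-96-5p ranked 3 and 4 by likeness to miR-182-5p, and miR-183-3p ranked 38. These correlations are descriptions of 6 libraries that share their scaling and, in pairs, their trial.

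Outside the cluster, the 5 microRNAs most like miR-182-5p by the same measure were miR-1981-5p and miR-301b-3p (r = 0.91 each), miR-301a-3p (0.90), miR-664-5p (0.88) and miR-28a-5p (0.87), out of 319 candidates whose median r was -0.02. miR-1981-5p had 34.2, 37.8 and 44.8 CPM uninduced and 38.1, 42.3 and 48.3 CPM induced in trials 1, 2 and 3, with trial 3 highest in both groups, as for miR-183-5p. miR-301a-3p was the most abundant of them, with 1784, 2267 and 2254 CPM uninduced and 2066, 2656 and 2454 CPM induced. The r of miR-1981-5p was also 0.96 with miR-183-5p and 0.91 with miR-96-5p. Likeness as close as that between the 5p strands was therefore not particular to the cluster. The log2 fold changes of these 5 lay between 0.13 and 0.46. They were picked by likeness over both groups, which favours changes of the same sign as that of miR-182-5p. Without the block 0 of the 5 passed, beside 6.1% of the 525 tested microRNAs. With the block miR-28a-5p passed (edgeR adjusted p = 0.0041), beside 21.7% of all tested.

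For the microRNAs nearest to the cluster on chromosome 6, no change passed the unblocked test, which 6.1% of all tested microRNAs passed. Of the 7 strands listed from hairpins within 2 Mb, 5 were tested. All 5 had a negative log2 fold change, but the median over all 525 tested microRNAs was 0.02, so either sign was common. The miR-29a and miR-29b strands come from neighbouring hairpins and are not separate observations. miR-29a-3p, whose hairpin lies 893 kb away on the same strand, averaged 1403 CPM ± 221 without and 1342 CPM ± 98.7 with doxycycline (SD, n = 3 per group), with a log2 fold change of -0.06 (SE 0.14, edgeR adjusted p = 0.844). miR-29b-1-5p, from the neighbouring hairpin, had -0.77 (SE 0.27, edgeR adjusted p = 0.137). miR-129-5p, 1143 kb away, had 3.45 CPM ± 0.234 and 1.59 CPM ± 0.550, and its log2 fold change of -1.14 (SE 0.30) had an edgeR adjusted p of 0.055, or 0.014 with the block. miR-129-5p and miR-29b-3p are each also made from a hairpin elsewhere. The arms of miR-335, at 572 kb, had 2 and 10 reads in all and were not tested.

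Because the cluster acts on the Foxo pathway, 11 other microRNAs reported to target Foxo1 or Foxo3 were listed beside it. Of the 9 tested, 0 were higher and 1 was lower in induced cells without the block, miR-132-3p, which averaged 66.1 CPM ± 6.00 without and 38.5 CPM ± 5.47 with doxycycline (SD, n = 3 per group). Its log2 fold change was -0.78 (SE 0.16, edgeR adjusted p = 0.020), a call lost without replicate 1 or 2 of either group (edgeR adjusted p up to 0.122). With the block 4 were lower, namely miR-132-3p, its cluster partner miR-212-3p, miR-221-3p and miR-27b-3p, and 0 higher. Of all 525 tested microRNAs, 2.67% were called lower without the block and 11% with it. As cluster partners, miR-132-3p and miR-212-3p are not separate observations. The list's median log2 fold change was -0.23, beside 0.02 over all tested. miR-27b-3p, its most abundant member, had 16019 CPM ± 340 uninduced and 13563 CPM ± 747 induced, more than miR-182-5p in both groups.

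Of 8 microRNAs known from sensory cells and photoreceptors, 3 were tested and 0 passed without the block. Of all 525 tested microRNAs, 6.1% passed without the block and 21.7% with it. miR-7a-5p had a log2 fold change of 0.39 (SE 0.21, edgeR adjusted p = 0.326, or 0.0099 with the block) and miR-181a-5p one of -0.29 (SE 0.12, edgeR adjusted p = 0.211, or 0.025 with the block). That of miR-181c-5p was -0.41 (SE 0.21, edgeR adjusted p = 0.279, or 0.060 with the block). The 5 members that were not tested had few reads over the 6 libraries, 49 for miR-9-5p, 22 for miR-7b-5p, 12 for miR-204-5p, 6 for miR-211-5p and 0 for miR-124-3p.

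Some epithelial markers were higher in induced cells. Of 8 listed, the miR-200 family together with miR-203, miR-205 and miR-375, 5 were tested, and 3 were higher in induced cells: miR-141-3p (1.45, SE 0.17, edgeR adjusted p = 8.0e-04), miR-200c-3p (1.28, SE 0.29, edgeR adjusted p = 0.035) and miR-200b-3p (0.73, SE 0.19, edgeR adjusted p = 0.050), as log2 fold changes. With the block 4 were higher. Of all 525 tested microRNAs, 3.43% were called higher without the block and 10.7% with it. The called members are all of the miR-200 family and were not shown to be independent. Of the 3 calls without the block, that of miR-141-3p held in all 6 fits without 1 library. That of miR-200c-3p was lost without replicate 1 of either group or induced replicate 2, and that of miR-200b-3p was lost in all 6 (edgeR adjusted p up to 0.189 for both). The list's summed level was 32.9 to 40.1 CPM uninduced and 81.7 to 102 CPM induced, below the level of miR-183-5p alone. The untested members miR-205-5p, miR-203-3p and miR-375-3p had 7, 23 and 38 reads in all. The part of the epithelial markers in the levels of the cluster was not tested either.

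The promoter of Mirc35hg is shown because the 3 hairpins lie in its span. It runs from 250 bases before to 50 after the annotated start (GRCm38, chr6:30174076-30174375, minus strand), with the match to CCAAT, a common promoter element, in capitals.
Mirc35hg promoter: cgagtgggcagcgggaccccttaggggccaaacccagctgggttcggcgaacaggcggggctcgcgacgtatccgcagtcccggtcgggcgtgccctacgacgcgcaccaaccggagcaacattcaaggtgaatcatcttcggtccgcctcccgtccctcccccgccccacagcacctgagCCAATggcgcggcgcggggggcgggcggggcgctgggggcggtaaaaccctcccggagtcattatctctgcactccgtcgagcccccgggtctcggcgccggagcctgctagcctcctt

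The sequence is 70.3% G and C, against a median of 52.7% over the 32851 promoters of the table. On both strands it was searched for CCAAT, for GGAA, the core bound by PU.1 and other ETS factors, and for the longer words GAGGAA and GAGGAAGT, which contain that core. CCAAT had 1 match, and 37.4% of all promoters hold it. GGAA had 0 matches in these 300 bases, so the longer words had 0 as well. GGAA stands in 96% of all promoters, GAGGAA in 28.3% and GAGGAAGT in 3.2%. Of these promoters, 4713 had a G and C content within 5 percentage points of this one. Among those, CCAAT stands in 30.7%, GGAA in 92.8%, GAGGAA in 23% and GAGGAAGT in 2.23%. A match or its absence in this window says nothing about binding of a factor.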

How the data were processed

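Per the labels' protocols, 1000 ng of total RNA per sample (miRNeasy) went into TruSeq small RNA libraries, which were read as single ends on an Illumina HiSeq. The submitters' processing notes list Trim Galore 0.4.0, DESeq2 2.1.8.0 and mm10, and miRBase is named as the alignment target in the series' design text. Which aligner and counter were used, and what was done with reads of several matches, is not given in the sources. The deposited tables hold raw counts (2061 entries) and CPM, which equal the counts over the library total within 0.005 CPM. For names with several entries the one with the highest total was kept, which left out 17.5% of the reads and touched no member. The members and all lists were chosen with earlier results of these data known.

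The main fit used edgeR 4.0.16 under R 4.3.3 (TMM, filterByExpr, robust glmQLFit, glmQLFTest, two-sided) over 525 microRNAs, with Benjamini-Hochberg adjustment at 0.05. The 1390 names under the filter were not tested. Log2 CPM used a prior count of 2 and log2 ratios a pseudocount of 0.5 reads, and ratios were compared by exact permutation in SciPy 1.17.1. The edgeR fits with and without the block were first run on simulated counts with known changes. Those changes were larger than the ones seen in the cluster, and all microRNAs shared a common dispersion. The simulation therefore does not bear on changes of the cluster's size. Replicate libraries differed by far more than sampling noise (chi-square over its degrees of freedom at least 98.7). Libraries of the same trial deviated together from their group means (correlations 0.33, 0.45 and 0.53 for trials 1, 2 and 3). Those of different trials had correlations of -0.45 to 0.04. Deviations cancel within a group, so these values are not independent of the former. The trial numbers were therefore taken as pairs in the changes per trial, the block and the sign-flip test. The main fit and the permutation tests did not use the pairs. Alternatives were the trial as a block, DESeq2 1.42.0, limma-voom and limma 3.58.1 on the authors' CPM (log2 of CPM plus 1), unscaled totals, no filter, other entries of a name, another pseudocount or prior count, and leaving out each library. Named besides the members were microRNAs with the same seed as a 5p member, those within 2 Mb, the 5 most like miR-182-5p, and the most abundant tested members of each list (at most 4). miR-132-3p, miR-212-3p and the low-count list members named with their reads were chosen after their values were seen.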

Additional observations from a re-analysis of the deposited data

How the results depend on the processing

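Of the tested arms, miR-183-5p, miR-96-5p and miR-183-3p stayed positive and did not pass in any of 17 alternative fits each. miR-182-5p stayed positive in all 17 and passed in 1, the replicate block (0.28). The fits without both libraries of a trial were added after the data were seen. Leaving out 1 library gave log2 fold changes of 0.14 to 0.41 for miR-182-5p, 0.06 to 0.48 for miR-183-5p, 0.02 to 0.32 for miR-96-5p and 0.03 to 0.40 for miR-183-3p. Over all microRNAs, 32 passed, against 114 with the replicate block, 66, 60 and 12 with the block and without trials 1, 2 and 3, 20 in limma-voom, and 12 to 41 without 1 library. The log2 ratio of miR-183-5p to miR-182-5p (-0.03) ranged from -0.09 to 0.07 without 1 library, turning positive without uninduced replicate 3 (0.07) or induced replicate 2 (0.05). The 5p to 3p ratio of miR-183 (0.06) ranged from -0.04 to 0.15, and was negative without uninduced replicate 1 (-0.01) or induced replicate 2 (-0.04). That of miR-182 ranged from -1.18 to 0.40 and was 0.02 with a pseudocount of 5 reads. The ratio of miR-96-5p ranged from -0.16 to -0.02 to miR-182-5p and from -0.15 to -0.01 to miR-183-5p. With the trials as pairs (replicate block, exact sign-flip test) the 5 ratios had p of 0.25 or more, the smallest that 3 pairs allow. The changes per trial were positive in 12 of 12 values with unscaled library totals and with a prior count of 0.5. Depth limits miR-182-3p and miR-96-3p, with 62 and 36 reads in all.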
